A study of Arabidopsis thaliana with 12 samples.

Results

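The nuclear photosynthesis genes examined here are 55 loci of Arabidopsis thaliana that encode antenna, reaction-centre and electron-carrier subunits of the chloroplast thylakoid and enzymes of carbon fixation. They were chosen by their locus identifiers, as given in a fixed list, and make up 55 of the 69383 features counted in each library. The list holds 6 antenna genes of photosystem I (LHCI), 14 of photosystem II (LHCII), 12 subunits of photosystem I, 10 of photosystem II, 5 genes of electron transport and ATP synthase, and 8 of carbon fixation. All 55 were found in every library and all 55 passed the filter on low counts. Messenger RNA was sequenced from whole seedlings aged 12 days, grown under long days on a medium with sucrose. The 4 groups of 3 libraries (A, B and C) were the wild type Col-0 before ABA, Col-0 4 h after a spray with 10 µM of the stress hormone abscisic acid (ABA) in water, and RNAi-MARS seedlings at the same 2 times. RNAi-MARS plants carry an RNA interference construct against MARS, a long non-coding RNA next to the genes of marneral synthesis, and the number of independent lines behind them is not given in the sources used here. No group sprayed without hormone was analysed here, so ABA, the spray itself and the time of day cannot be told apart.

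In the light reactions, chlorophyll-binding antenna proteins pass excitation energy to photosystem II, which splits water, and to photosystem I, which reduces ferredoxin. Electrons travel between them through the cytochrome b6f complex and plastocyanin, and the proton gradient drives ATP synthase. In the Calvin-Benson cycle Rubisco fixes carbon dioxide with the ATP and reducing power so made. All genes listed here are transcribed in the nucleus and their proteins are imported into the chloroplast. Their transcripts follow light and the circadian clock, and ABA, which closes stomata in dry soil, is known to lower many of them.

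Levels are given as CPM, each library's counts scaled to a common library size. The libraries held 19020202 to 38787804 counts, and the 55 genes took 12.0 to 19.5% of them. MARS stood at 6.63, 2.60 and 0.344 CPM in Col-0 before ABA and at 0.196, 0.156 and 0.167 in RNAi-MARS. After ABA it stood at 21.3, 9.09 and 20.1 CPM in Col-0 and at 2.3, 1.34 and 4.1 in RNAi-MARS, so the genotypes did not overlap at either time. Library C of Col-0 before ABA was thus near the RNAi-MARS level. Nothing says whether the libraries of a group came from separate cultures, so p-values measure the spread between these libraries, which may be technical. A pair of libraries stood apart for the photosynthesis genes. Library C of Col-0 before ABA was the highest of its group for 54 of the 55 genes, and library B of RNAi-MARS after ABA was the lowest of its group for 54 of 55 and the lowest of all 12 libraries for 51. The summed level of 19 root marker genes was 97.2, 76.2 and 41.8 CPM in Col-0 before the spray and 86.2, 57.2 and 51.3 at 4 h, and 89.5, 47.2 and 58.7 before and 33.3, 66.0 and 66.2 after in RNAi-MARS. Its part in the results was not tested, and in bulk seedlings fewer green cells and less RNA per green cell cannot be told apart.

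Before ABA the 55 genes differed widely in level in Col-0. Per kilobase of exon, the antenna gene LHCB1.3 was the most abundant with a mean of 12439 CPM per kb, ahead of the Rubisco small-subunit gene RBCS1A with 9444 and LHCB1.5 with 9338. The lowest were LHCA5 with 144, LHCA6 with 114 and LHCB4.3 with 13.9 CPM per kb. LHCA5 and LHCA6 encode minor antenna proteins that join photosystem I to the NDH complex. The order rests on means: for 49 of the 54 pairs of neighbours in it the Col-0 libraries overlapped, as for LHCB1.3 (10713, 11573 and 15030.0 CPM per kb in libraries A, B and C) and RBCS1A (9488, 8039 and 10804). Neighbours were apart after LHCB1.5, PSAH1, PETE1, LHCA5 and LHCA6. Exon length here joins all annotated exons of a gene, as 1300 bases for PSAH1 and 702 for PSAH2, which both have 438 coding bases. The order thus depends in part on the annotation. At 4 h after ABA LHCB1.3 stood at 13528 CPM per kb and LHCB1.5 at 10574, while RBCS1A stood at 5819.6 and RCA at 2421 after 6331 before.

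Several proteins are encoded by close copies, and the first 60 coding bases show where they differ at the start. How alike the copies are is given by their identity over the whole coding sequence. Sequences are from the RefSeq release of the TAIR10 assembly and run 5′ to 3′ on the coding strand. Capitals mark positions at which the copies of a family are not all alike. The 5 LHCB1 genes encode the main protein of the LHCII trimer. LHCB1.1, LHCB1.2 and LHCB1.3 lie together on chromosome 1, at chr1:10474656-10475969, chr1:10472280-10473502 and chr1:10477885-10479114, and LHCB1.4 and LHCB1.5 on chromosome 2, at chr2:14524607-14525918 and chr2:14522524-14523568.
LHCB1.1: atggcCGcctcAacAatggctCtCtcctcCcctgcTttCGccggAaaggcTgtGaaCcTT
LHCB1.2: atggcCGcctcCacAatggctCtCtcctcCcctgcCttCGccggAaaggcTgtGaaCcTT
LHCB1.3: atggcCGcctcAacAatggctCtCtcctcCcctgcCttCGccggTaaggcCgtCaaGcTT
LHCB1.4: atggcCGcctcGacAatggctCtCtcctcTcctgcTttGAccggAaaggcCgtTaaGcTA
LHCB1.5: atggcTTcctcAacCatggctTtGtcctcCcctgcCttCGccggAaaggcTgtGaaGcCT
Over the whole coding sequence these copies are 86.8 to 96.4% identical, and the longest run shared by any pair is 35 to 122 bases. The 4 RBCS genes, for the small subunit of Rubisco, are 89.9 to 97.3% identical, with shared runs of 44 to 233 bases. RBCS1A is on chromosome 1 at chr1:25048158-25049667, and RBCS1B, RBCS2B and RBCS3B are neighbours on chromosome 5, at chr5:15383167-15385320, chr5:15380907-15382071 and chr5:15376988-15378642, with 12 of the first 60 positions not alike over the 4 copies.
RBCS1A: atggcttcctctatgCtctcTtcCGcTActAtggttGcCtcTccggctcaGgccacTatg
RBCS1B: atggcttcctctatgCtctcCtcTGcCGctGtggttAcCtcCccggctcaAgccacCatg
RBCS2B: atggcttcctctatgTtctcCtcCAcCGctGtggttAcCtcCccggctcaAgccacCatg
RBCS3B: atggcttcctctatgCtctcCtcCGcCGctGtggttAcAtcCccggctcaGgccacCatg
The LHCB2 copies are 84.4 to 96.6% identical with shared runs of up to 152 bases. The 6 pairs of subunit copies, those of PSAD, PSAE, PSAH, PSBO, PSBQ and PETE, are 72.9 to 87.0% identical with a longest shared run of 17 to 35 bases. PSBO1 and PSBO2, of the oxygen-evolving complex, are shown as an example and are 83.6% identical.
PSBO1: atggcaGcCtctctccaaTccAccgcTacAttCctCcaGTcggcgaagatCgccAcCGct
PSBO2: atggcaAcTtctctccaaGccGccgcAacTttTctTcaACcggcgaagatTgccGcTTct
Counts that are not whole occurred in at least 1 library for 39 of the 55 genes and in all 12 for LHCB1.1, LHCB1.4, RBCS2B and RBCS3B. How the authors shared out reads that match several copies is not given in the sources used here. Single values within LHCB1, LHCB2 and RBCS are therefore uncertain, and the summed counts of each family are given beside them.

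The question of how these genes respond to ABA in the wild type was addressed by comparing Col-0 after and before the spray. In Col-0 14 of the 55 genes fell and 1 rose (edgeR's quasi-likelihood test, Benjamini-Hochberg adjusted p under 0.05 over all 22465 features), where of all tested features 40% were called, 19.3% lower and 20.7% higher. Of the 14, 8 were the whole carbon fixation group, and the others were LHCA6, LHCB3, LHCB4.2, LHCB4.3, PSBS and PETE2. The gene that rose was LHCB1.4. In RNAi-MARS 24 fell and none rose, where 42.6% of all features were called, 21.0% lower and 21.6% higher. An unadjusted p under 0.05 was found for 31 genes in RNAi-MARS and 21 in Col-0, where 11370 and 10861 of all 22465 features had one. In RNAi-MARS DESeq2 called 29 genes and limma-voom 25, all lower. In Col-0 they called 21 and 16, of which 3 and 2 were higher. Of all features DESeq2 called 4775 of 22418 lower in RNAi-MARS and 4438 in Col-0. For limma-voom these were 4864 and 4323 of 22465. The 14 genes that fell in Col-0 all fell in RNAi-MARS too (100% of the Col-0 list and 58.3% of the RNAi-MARS list), and the comparisons share no library. The other 10 were LHCB2.3, LHCB5, LHCB6, PSAH2, PSBO2, PSBQ1, PSBY, PETE1, PETC and ATPD. The median log2 difference over all 55 was -0.21 in Col-0 and -0.39 in RNAi-MARS, where the median over all tested features was 0.00 and -0.02. With library C of Col-0 before ABA left out, Col-0 had 10 genes lower and 2 higher, and with library B of RNAi-MARS after ABA left out, RNAi-MARS had 18 lower and 2 higher.

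**Figure D1:**
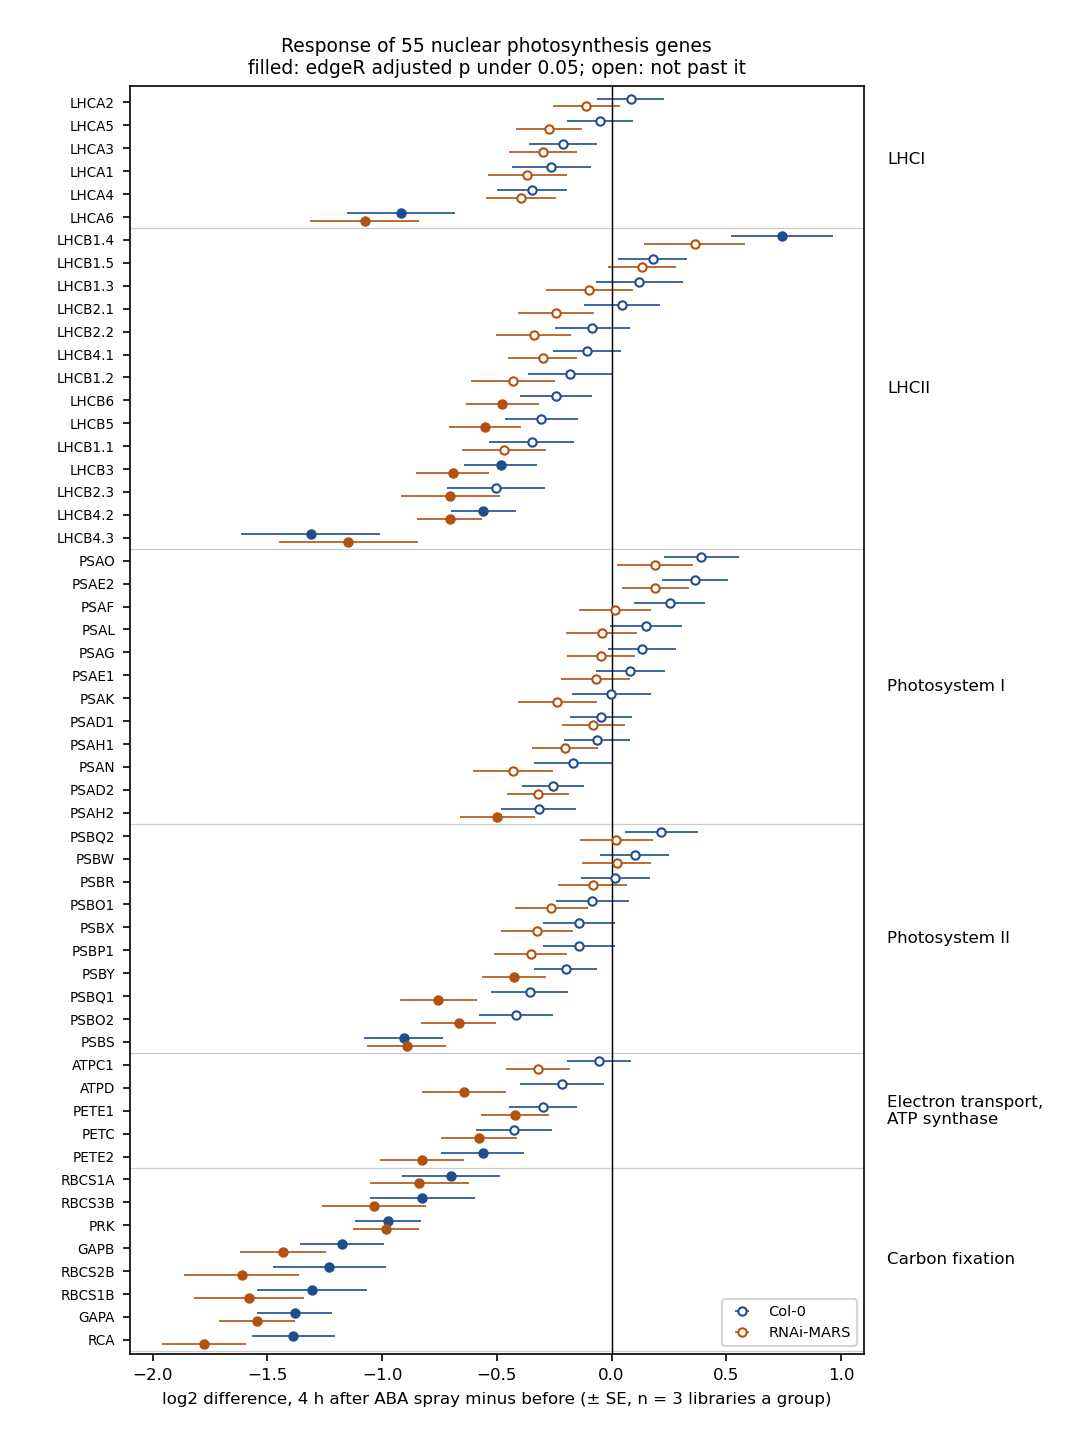
Log2 difference between 4 h after and before the ABA spray for each of the 55 genes, grouped by complex, in Col-0 (blue) and RNAi-MARS (orange), with bars for the standard error (SE, 3 libraries a group); filled points passed an adjusted p of 0.05. The 8 carbon fixation genes lie below the other groups' medians in both genotypes, and photosystem I genes lie around 0.

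All 8 carbon fixation genes fell in both genotypes, with a median log2 difference of -1.20 in Col-0 and -1.49 in RNAi-MARS. The medians of the other 5 groups lay between -0.30 and 0.04 in Col-0 and between -0.58 and -0.07 in RNAi-MARS. For each of the 8 carbon fixation genes, every library after ABA lay below every library before it. In Col-0 26.5% of all tested features, and in RNAi-MARS 26.4%, had libraries after ABA that all lay below those before, and 26.4% and 26.0% had them all above. RCA (AT2G39730), whose product Rubisco activase frees the active sites of Rubisco, stood at 13715, 11966 and 14223 CPM in libraries A, B and C of Col-0 before ABA and at 6271, 4493 and 4495 after it. RNAi-MARS had 12028, 11480.4 and 11737 CPM of RCA before and 4017, 2705 and 3573 after. The log2 difference was -1.39 ± 0.18 (adjusted p = 0.000139) in Col-0 against -1.78 ± 0.18 (adjusted p = 2.27e-05) in RNAi-MARS. GAPA (AT3G26650) and GAPB (AT1G42970) encode the 2 subunits of the NADPH-dependent glyceraldehyde-3-phosphate dehydrogenase, the reducing step of the cycle. GAPA went from 2940.2, 2701 and 3213 CPM to 1232, 992 and 1177 in Col-0 and from 2538, 2408 and 2663 to 1076, 686 and 845 in RNAi-MARS, differences of -1.38 ± 0.16 (adjusted p = 7.07e-05) and -1.55 ± 0.16 (adjusted p = 2.82e-05). GAPB had differences of -1.17 ± 0.18 and -1.43 ± 0.19. PRK (AT1G32060), for phosphoribulokinase, which regenerates the acceptor of carbon dioxide, went from 1932, 1777 and 2014 CPM to 1101, 894 and 918 in Col-0 and from 1599.5, 1558 and 1625 to 973, 672 and 774 in RNAi-MARS. Its log2 difference was the same within the error in both genotypes, -0.97 ± 0.14 and -0.98 ± 0.14.

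The 4 RBCS copies all fell. RBCS1A, the highest of them per kb, stood at 12031, 10193 and 13699 CPM before and 6858, 6523 and 8756 after ABA in Col-0, and at 11193, 10819.6 and 12452 before and 8074, 4444 and 6774 after in RNAi-MARS. The groups did not overlap, and the log2 difference of RBCS1A was -0.70 ± 0.21 (adjusted p = 0.0224) in Col-0 against -0.84 ± 0.21 (adjusted p = 0.00846) in RNAi-MARS. RBCS1B went from 2337, 2049.6 and 2719 CPM to 979, 742 and 1157 in Col-0 and from 2249, 2389 and 2321 to 1072, 527 and 729 in RNAi-MARS, differences of -1.30 ± 0.24 and -1.58 ± 0.24. RBCS2B was at -1.23 ± 0.25 and -1.61 ± 0.25, and RBCS3B at -0.82 ± 0.23 and -1.04 ± 0.23. Summed over the 4 copies, a value that depends less on how reads were divided between copies, RBCS counted 23540.3, 19958 and 27027 CPM before and 12562, 11085 and 15463 after ABA in Col-0, and 23139, 21538 and 23213 before and 14171, 7531 and 11218 after in RNAi-MARS. The sums did not overlap either, and their log2 difference was -0.85 (adjusted p = 0.00994) for Col-0 against -1.04 (adjusted p = 0.00291) for RNAi-MARS. Leave-out fits of Col-0 lost RBCS1A without library A or C before ABA or library A or B after it (adjusted p = 0.0541, 0.0805, 0.0738 and 0.0827) and RBCS3B without library C before or B after (0.0532 and 0.0575). The summed family kept its call without any single library.

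**Figure D2:**
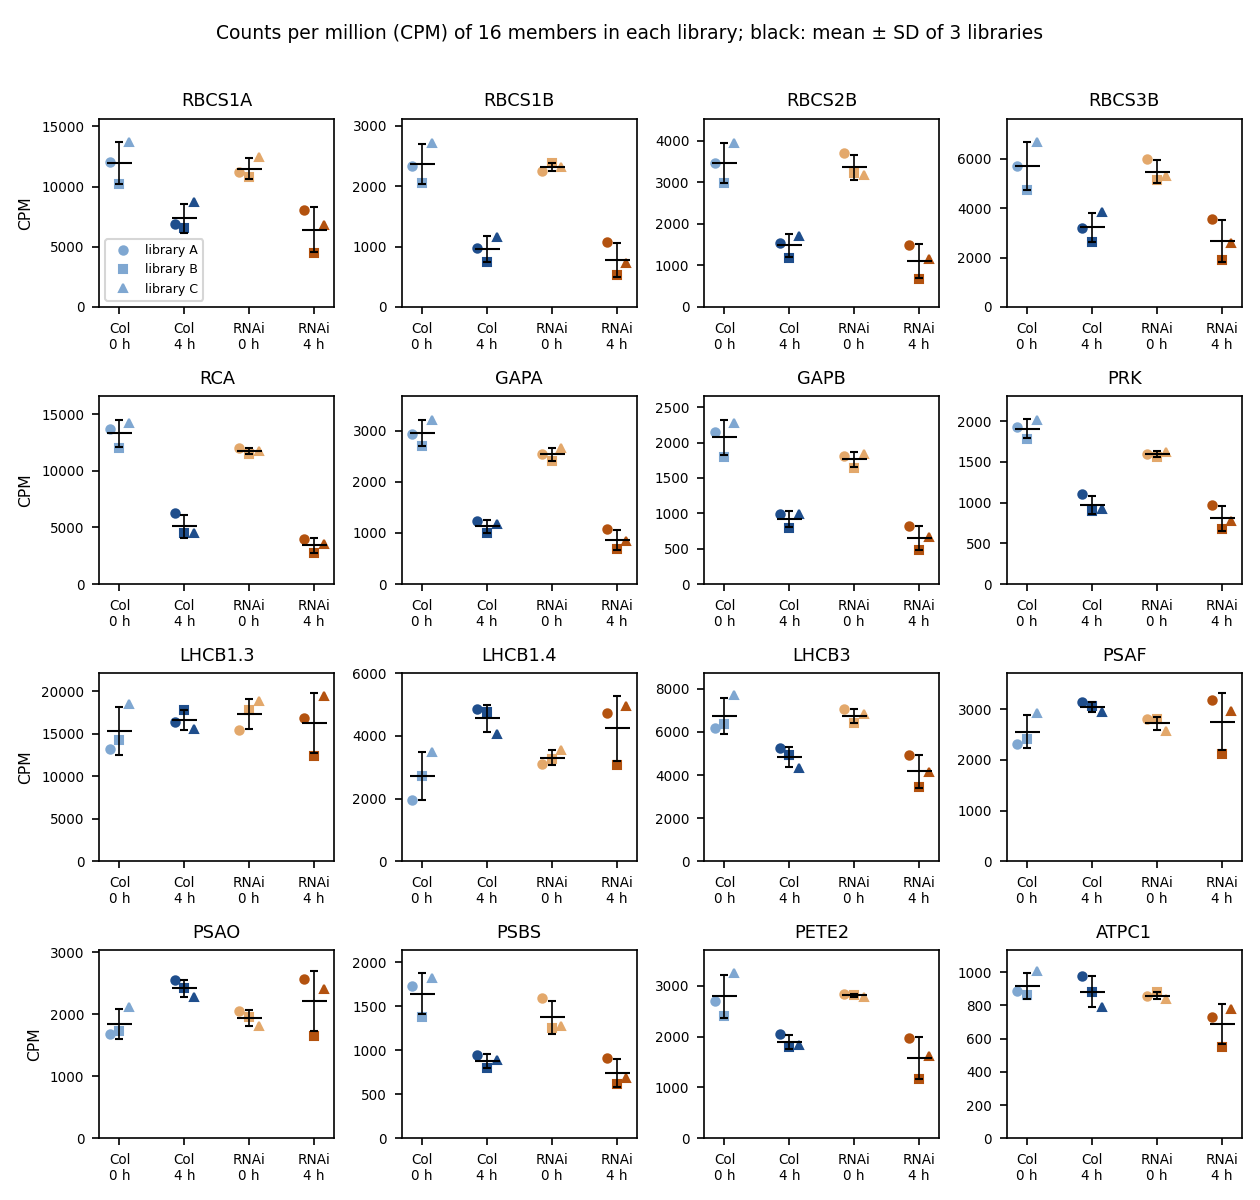
CPM in each of the 12 libraries for the 8 carbon fixation genes (upper 8 panels) and 8 further genes, with circles, squares and triangles for libraries A, B and C and black bars for mean ± SD (n = 3). RCA lies at 11480 CPM or more before ABA and at 6271 or less after it, and LHCB1.3 overlaps between all 4 groups.

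The 250 bases before the annotated start of RBCS2B and RCA, which fell, and of LHCB1.3, which did not pass the test, and LHCB1.4, which rose in Col-0, show what the promoters hold. Capitals mark the G-box (CACGTG), the I-box (GATAAG) and the CCAAT box, on either strand, elements known from light-regulated promoters. The windows are at chr5:15382072-15382321 and chr2:16573693-16573942, both on the minus strand, and at chr1:10477635-10477884 and chr2:14524357-14524606, both on the plus strand (TAIR10).
RBCS2B: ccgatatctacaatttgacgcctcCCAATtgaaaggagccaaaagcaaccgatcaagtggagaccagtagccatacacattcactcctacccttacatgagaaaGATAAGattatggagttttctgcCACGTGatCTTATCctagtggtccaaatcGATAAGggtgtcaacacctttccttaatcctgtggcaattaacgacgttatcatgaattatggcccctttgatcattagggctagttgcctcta
RCA: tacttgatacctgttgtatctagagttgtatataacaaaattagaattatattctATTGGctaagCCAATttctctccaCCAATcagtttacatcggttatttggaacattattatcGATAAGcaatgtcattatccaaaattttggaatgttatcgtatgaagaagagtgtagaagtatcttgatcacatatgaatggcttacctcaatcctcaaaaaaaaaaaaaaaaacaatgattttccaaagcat
LHCB1.3: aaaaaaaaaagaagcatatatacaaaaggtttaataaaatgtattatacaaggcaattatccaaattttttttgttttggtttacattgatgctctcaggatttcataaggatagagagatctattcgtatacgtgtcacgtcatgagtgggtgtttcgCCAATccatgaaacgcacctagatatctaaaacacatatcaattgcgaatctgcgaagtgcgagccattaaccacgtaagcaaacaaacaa
LHCB1.4: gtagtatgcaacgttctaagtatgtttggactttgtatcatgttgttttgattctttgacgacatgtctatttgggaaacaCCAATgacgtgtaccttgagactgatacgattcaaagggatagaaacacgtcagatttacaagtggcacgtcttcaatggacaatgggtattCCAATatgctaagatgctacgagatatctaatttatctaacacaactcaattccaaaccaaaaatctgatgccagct
The RBCS2B window has 1 G-box between I-boxes, 3 of the latter in all, and 1 CCAAT box. RCA has 1 I-box and 3 CCAAT boxes, LHCB1.3 has 1 CCAAT box and LHCB1.4 has 2. Over the 55 genes the G-box was found in 11 (20.0%), against 6.49% of the same windows of all 27443 protein-coding genes, and the I-box in 13 (23.6%), against 12.3%. The CCAAT box was found in 37 (67.3%), against 46.0%, with 13 of 14 LHCII genes and 2 of 10 photosystem II genes. The core of the ABA-responsive element (ACGTGG, either strand), which can overlap the G-box, was found in 16 (29.1%), against 8.23%, and 10 genes had both. Of the 8 carbon fixation genes 2, RBCS2B and PRK, held it, as did 3 of the 12 photosystem I genes. The evening element of the clock (AAAATATCT) was in 2 of the 55 (3.64%, against 2.36%), LHCA5 and ATPC1.

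Among the 6 LHCI genes, whose products bind chlorophyll on the side of photosystem I, LHCA6 fell and the other 5 did not pass the test. In each genotype 16.7% of the 6 were thus called lower, near the 19.3% and 21.0% of all features in Col-0 and RNAi-MARS. LHCA6 (AT1G19150) stood at 136, 113 and 149 CPM in Col-0 before ABA and at 79.1, 60.1 and 71.5 after it, and at 136, 103 and 118 before and 82.2, 46.8 and 40.1 after in RNAi-MARS. No library after ABA reached any before it, and the log2 difference was -0.92 ± 0.24 (adjusted p = 0.01) in Col-0 against -1.07 ± 0.24 (adjusted p = 0.00399) in RNAi-MARS. LHCA4, the LHCI gene with the most counts, had 7464, 7397 and 8889 CPM before and 6716, 6164 and 5812 after ABA in Col-0, and 7818, 7115 and 7720.1 before and 6562, 4586 and 6090.5 after in RNAi-MARS. Its groups did not overlap, while its log2 differences of -0.35 ± 0.15 and -0.39 ± 0.15 missed the threshold (adjusted p = 0.0936 and 0.0567). LHCA5, which like LHCA6 links photosystem I to the NDH complex, stood at 144, 139.8 and 177 CPM before and 159, 144 and 143 after ABA in Col-0, where the groups overlapped, and at 154, 146 and 146 before and 144, 95.2 and 130.5 after in RNAi-MARS. Its log2 differences were -0.05 ± 0.14 and -0.27 ± 0.14, neither past the threshold.

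In LHCII 3 of 14 genes fell and 1 rose in Col-0, shares near or below those over all features (19.3% lower, 20.7% higher), and 6 fell and none rose in RNAi-MARS (21.0% and 21.6%). LHCB4.3 (AT2G40100), a scarce copy of a minor antenna protein, fell most: it stood at 24.9, 13.1 and 22.3 CPM before and 7.08, 7.11 and 10.1 after ABA in Col-0, and at 21.3, 10.6 and 13.2 before and 8.42, 5.75 and 6.23 after in RNAi-MARS. The groups did not overlap in either genotype, and the differences were -1.31 ± 0.30 (adjusted p = 0.00582) and -1.15 ± 0.30 (adjusted p = 0.0108; 0.0509 with library B of RNAi-MARS after ABA left out). LHCB4.2 fell in both genotypes, with log2 differences of -0.56 ± 0.14 and -0.71 ± 0.14. LHCB3, the third protein of the LHCII trimer, had 6166, 6387 and 7719 CPM before and 5257, 4912 and 4327 after in Col-0, and 7047, 6401 and 6818 before and 4953, 3434 and 4156 after in RNAi-MARS, again without overlap. Its differences were -0.48 ± 0.16 (adjusted p = 0.029) and -0.69 ± 0.16 (adjusted p = 0.00435), and the Col-0 call did not hold without library C before ABA (0.113) or library B or C after it (0.0686 and 0.104).

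LHCB1.4 (AT2G34430) was the gene that rose with edgeR's test. It stood at 1969, 2704 and 3499.5 CPM in Col-0 before ABA and at 4873, 4749 and 4056 after it, and at 3107, 3256 and 3557 before and 4745, 3059 and 4950.4 after in RNAi-MARS. The groups were apart in Col-0 and overlapped in RNAi-MARS, where library B after ABA was the lowest. The log2 difference was 0.74 ± 0.22 (adjusted p = 0.0198) in Col-0 against 0.36 ± 0.22 (adjusted p = 0.209) in RNAi-MARS. The Col-0 call did not hold without library A or B before ABA (0.0759 and 0.0551) or library A or B after it (0.0530 and 0.0553), and in RNAi-MARS it was gained without library B after ABA (adjusted p = 0.038). LHCB1.3, the highest of the 55 per kb, overlapped between the times, with 13177, 14234 and 18487 CPM before and 16426, 17860.0 and 15629.8 after in Col-0 and 15404, 17853 and 18843 before and 16822, 12429.8 and 19429 after in RNAi-MARS. Its differences were 0.12 ± 0.19 and -0.10 ± 0.19, neither past the threshold. Summed over the 5 copies, LHCB1 counted 38198, 39899 and 52122 CPM before and 45776, 46514 and 43134 after in Col-0, and 44661, 46616 and 49496 before and 47201, 33479 and 49247 after in RNAi-MARS. The groups overlapped, and the log2 difference of the sum was 0.06 (adjusted p = 0.827) for Col-0 against -0.12 (adjusted p = 0.632) for RNAi-MARS.

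LHCB2, the LHCII protein that is phosphorylated in state transitions, did not pass the test as a family. Its 3 copies together counted 7426, 7857 and 9537 CPM before and 8813, 8045 and 6437 after ABA in Col-0, and 9007, 9352 and 8370.1 before and 7805, 5737 and 7409 after in RNAi-MARS. The difference of the sum was -0.09 (adjusted p = 0.694) for Col-0 against -0.35 (adjusted p = 0.112) for RNAi-MARS. LHCB2.1, the gene of this group that moved least in Col-0, stood at 3095, 3346 and 3946 CPM before and 4064, 3689 and 2960.5 after, a difference of 0.04 ± 0.17, and at -0.24 ± 0.17 in RNAi-MARS. LHCB2.3, on another chromosome than the other two, fell in RNAi-MARS (-0.70 ± 0.21, adjusted p = 0.0207) and was at -0.50 ± 0.21 (adjusted p = 0.0826) in Col-0. The minor antenna genes LHCB5 and LHCB6 fell in RNAi-MARS (-0.55 ± 0.16 and -0.48 ± 0.16) and were at -0.31 ± 0.16 and -0.24 ± 0.16 in Col-0. In RNAi-MARS LHCB2.3 and LHCB6 lost the call without library B after ABA (0.0795 and 0.0834), and all 3 lost it without library A before ABA (0.0823, 0.0544 and 0.0729 for LHCB2.3, LHCB5 and LHCB6). LHCB2.3 lost it too without library C after ABA (0.0730), and LHCB6 without library B or C before or C after it (0.0738, 0.0632 and 0.0560).

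Photosystem I had the medians nearest 0, 0.04 in Col-0 and -0.07 in RNAi-MARS. None of its 12 genes passed the test in Col-0, where 6 differences were above and 6 below 0, and 2 genes had an unadjusted p under 0.05. Of all 22465 features 40% were called in Col-0, and 10861 had an unadjusted p under 0.05. The gene with the highest difference was PSAO (AT1G08380), whose product helps dock LHCII to photosystem I. It stood at 1678, 1722 and 2119 CPM before and 2553, 2421 and 2268 after ABA in Col-0, with no overlap, and at 2054, 1957 and 1802 before and 2566, 1655 and 2408 after in RNAi-MARS, where library B after ABA was the lowest. Its differences were 0.39 ± 0.17 (adjusted p = 0.0802) and 0.19 ± 0.17. With edgeR PSAO was called higher in Col-0 with no TMM factors (adjusted p = 0.0218) and with the compared groups alone (0.0396). Dropping the low library B of the sprayed RNAi-MARS group gave a call in Col-0 (0.0150) and in RNAi-MARS (0.0323). So did dropping the pair of libraries that stood apart (0.00448 and 0.0180). The other edgeR alternatives gave no call of PSAO. PSAF, which binds plastocyanin and had the most counts of the group over the 12 libraries, stood at 2325, 2424 and 2932 CPM before and 3142, 3065 and 2948 after in Col-0, and at 2801, 2808 and 2581 before and 3181, 2127 and 2969.5 after in RNAi-MARS. The Col-0 groups were just apart, and the differences of 0.25 ± 0.16 and 0.02 ± 0.16 did not pass. PSAK, near the LHCI antenna, had 1395, 1355 and 1775 CPM before and 1557, 1472 and 1495 after in Col-0, and 1628, 1627 and 1606 before and 1641, 997 and 1490.4 after in RNAi-MARS. Those groups overlapped, with differences of 0.00 ± 0.17 and -0.24 ± 0.17. In RNAi-MARS PSAH2, a subunit at the LHCII docking site, fell (-0.50 ± 0.16, adjusted p = 0.0292), a call lost without library B after ABA (0.0881) and without each of 4 other RNAi-MARS libraries (0.0551 to 0.0764). In Col-0 DESeq2 called 2 photosystem I genes higher, PSAO and PSAE2, and limma-voom 1, PSAE2. Of all features DESeq2 called 4884 of 22418 higher there, and limma-voom 4496 of 22465.

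Of the 10 photosystem II genes PSBS fell in both genotypes. In Col-0 10.0% of the 10 were called lower, beside 19.3% of all features, and in RNAi-MARS 40.0%, beside 21.0%. PSBS (AT1G44575) is the sensor of low lumen pH that switches on the dissipation of excess light as heat. It stood at 1734, 1382 and 1819 CPM in Col-0 before ABA and at 948, 794 and 893 after it, and at 1589, 1257 and 1277 before and 915, 614 and 691 after in RNAi-MARS. The groups were well apart, and the differences were -0.91 ± 0.17 (adjusted p = 0.00159) and -0.89 ± 0.17 (adjusted p = 0.00157). PSBO1, the gene of the group with the most counts and the main copy of the manganese-stabilising protein, had 4811, 4570.3 and 5811 CPM before and 5007, 4709 and 4622 after in Col-0, and 5221, 4835 and 4801 before and 4625, 3184 and 4582 after in RNAi-MARS. It overlapped in Col-0 and not in RNAi-MARS, and neither difference passed, -0.08 ± 0.16 and -0.26 ± 0.16. PSBR, a small subunit near the oxygen-evolving complex, was the least moved in Col-0, with 3324, 2978 and 3779 CPM before and 3709.7, 3365 and 3119 after, a difference of 0.02 ± 0.15. In RNAi-MARS it had 3398, 3064 and 3236 CPM before and 3471, 2478 and 3211 after, and a difference of -0.08 ± 0.15. PSBO2, PSBQ1 and PSBY fell in RNAi-MARS, with log2 differences of -0.67 ± 0.16, -0.75 ± 0.17 and -0.43 ± 0.14, and were at -0.41 ± 0.16, -0.36 ± 0.17 and -0.20 ± 0.14 in Col-0. PSBO2 and PSBQ1 kept that call under all 22 alternatives, and PSBY lost it without library B after ABA (0.0931) and without any library before it (0.0523 to 0.0865).

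Of the 5 genes of electron transport and ATP synthase 20.0% were called lower in Col-0, near the 19.3% of all features. In RNAi-MARS 80.0% of the 5 were, beside 21.0%. Between the photosystems, PETE2 (AT1G20340) fell in both genotypes. It encodes the main form of plastocyanin, the copper protein that carries electrons to photosystem I, and stood at 2706, 2414 and 3255 CPM before and 2051, 1796 and 1829 after ABA in Col-0. RNAi-MARS had 2834, 2816 and 2786 CPM of PETE2 before and 1979.7, 1157 and 1621 after, so the groups did not overlap in either genotype. The differences were -0.56 ± 0.18 (adjusted p = 0.0281) and -0.83 ± 0.18 (adjusted p = 0.00354), and the Col-0 call did not hold without library A or C before ABA (0.0556 and 0.111) or library B or C after it (0.0868 and 0.0777). PETC, the Rieske protein of the cytochrome b6f complex, fell in RNAi-MARS (-0.58 ± 0.17, adjusted p = 0.0156) and was at -0.42 ± 0.17 (adjusted p = 0.0617) in Col-0. PETE1, the minor plastocyanin gene, fell in RNAi-MARS (-0.42 ± 0.15, adjusted p = 0.0393; 0.0552 to 0.155 without each of 7 of the 12 libraries) and was at -0.30 ± 0.15 in Col-0. Of the ATP synthase genes, ATPC1, for the gamma subunit, had 886, 863 and 1006 CPM before and 976, 884 and 791 after, and 859, 880.4 and 837 before and 733, 552 and 780.5 after in RNAi-MARS. The Col-0 groups overlapped, and its differences of -0.06 ± 0.14 and -0.32 ± 0.14 did not pass. ATPD, the delta subunit, stood at 709, 777 and 908 CPM before and 776, 674 and 609 after in Col-0, and at 809, 888 and 773 before and 621, 372 and 590.2 after in RNAi-MARS. ATPD fell in RNAi-MARS (-0.64 ± 0.18, adjusted p = 0.0149; 0.0536 without library B before ABA) and was at -0.22 ± 0.18 in Col-0.

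The proportions of copies within a library were described for all pairs of copies in the 10 families, 28 in all, with no test, since the pairs were taken up after the data had been seen. The ratio of 2 copies, in CPM per kb, does not depend on how libraries are scaled. Its level depends on the annotated exon lengths, and its change with time does not. In 25 of the 28 pairs the ratios after ABA lay apart from those before it in Col-0, in 19 in RNAi-MARS, and these 19 were apart in both genotypes, in the same direction. How often ratios of other genes lay apart was not counted, so these counts have no background. Single features lay apart often: 26.5% lower and 26.4% higher in Col-0, and 26.4% and 26.0% in RNAi-MARS. Of the 28 pairs 10 were of LHCB1, 3 of LHCB2 and 6 of RBCS, whose single values are uncertain. Pairs of 1 family share genes and are not independent. The groups overlapped in both genotypes for RBCS3B to RBCS1A, LHCB1.5 to LHCB1.3 and LHCB4.3 to LHCB4.2, and RBCS2B to RBCS1B had the smallest change, a mean over both genotypes of 0.02 on the log2 scale. PSBQ1 to PSBQ2, copies of an extrinsic protein of the oxygen-evolving complex, had ratios of 0.897, 0.838 and 0.921 before and 0.595, 0.547 and 0.658 after ABA in Col-0, and 0.817, 0.931 and 0.881 before and 0.544, 0.474 and 0.502 after in RNAi-MARS. Every library after ABA lay below every library before it, and the mean log2 change of the ratio was -0.68. PSBO2 to PSBO1 went from 0.35, 0.357 and 0.35 to 0.306, 0.272 and 0.259 in Col-0 and from 0.362, 0.345 and 0.334 to 0.265, 0.268 and 0.256 in RNAi-MARS, a change of -0.37. LHCB4.2 to LHCB4.1 went from 1.04, 1.07 and 1.04 to 0.842, 0.806 and 0.655 in Col-0 and from 1.09, 1.04 and 1.03 to 0.77, 0.885 and 0.759 in RNAi-MARS, from near parity to an excess of LHCB4.1. In both pairs the times did not overlap in either genotype, nor did they for LHCB4.3 to LHCB4.1 (a mean log2 change of -0.98), PSAD2 to PSAD1 (-0.22) and PSAH2 to PSAH1 (-0.28).

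The ratio of PSAE2 to PSAE1, copies of a subunit where ferredoxin docks, was higher after ABA. It was 0.277, 0.294 and 0.305 before and 0.349, 0.371 and 0.348 after ABA in Col-0, and 0.291, 0.319 and 0.308 before and 0.364, 0.382 and 0.356 after in RNAi-MARS, again with no overlap and a change of 0.28. The plastocyanin ratio, PETE2 to PETE1, went from 10.3, 9.32 and 9.80 to 8.65, 7.85 and 8.00 in Col-0 and from 9.31, 8.99 and 9.52 to 6.99, 6.33 and 7.58 in RNAi-MARS. Its change was -0.34, and PETE2 was the main form in all 12 libraries. Where copies are too alike for reads to be certain, the log2 change was -0.69 for RBCS1B to RBCS1A and, for LHCB1.1 to LHCB1.3, -0.42, for LHCB2.3 to LHCB2.1 -0.51 and for LHCB1.4 to LHCB1.5 0.40. The last 2 ratios overlapped between the times in RNAi-MARS. Without any 1 library the change kept its direction in each of the 12 ratios given here by value, while that of RBCS2B to RBCS1B did not (-0.02 to 0.07).

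**Figure D3:**
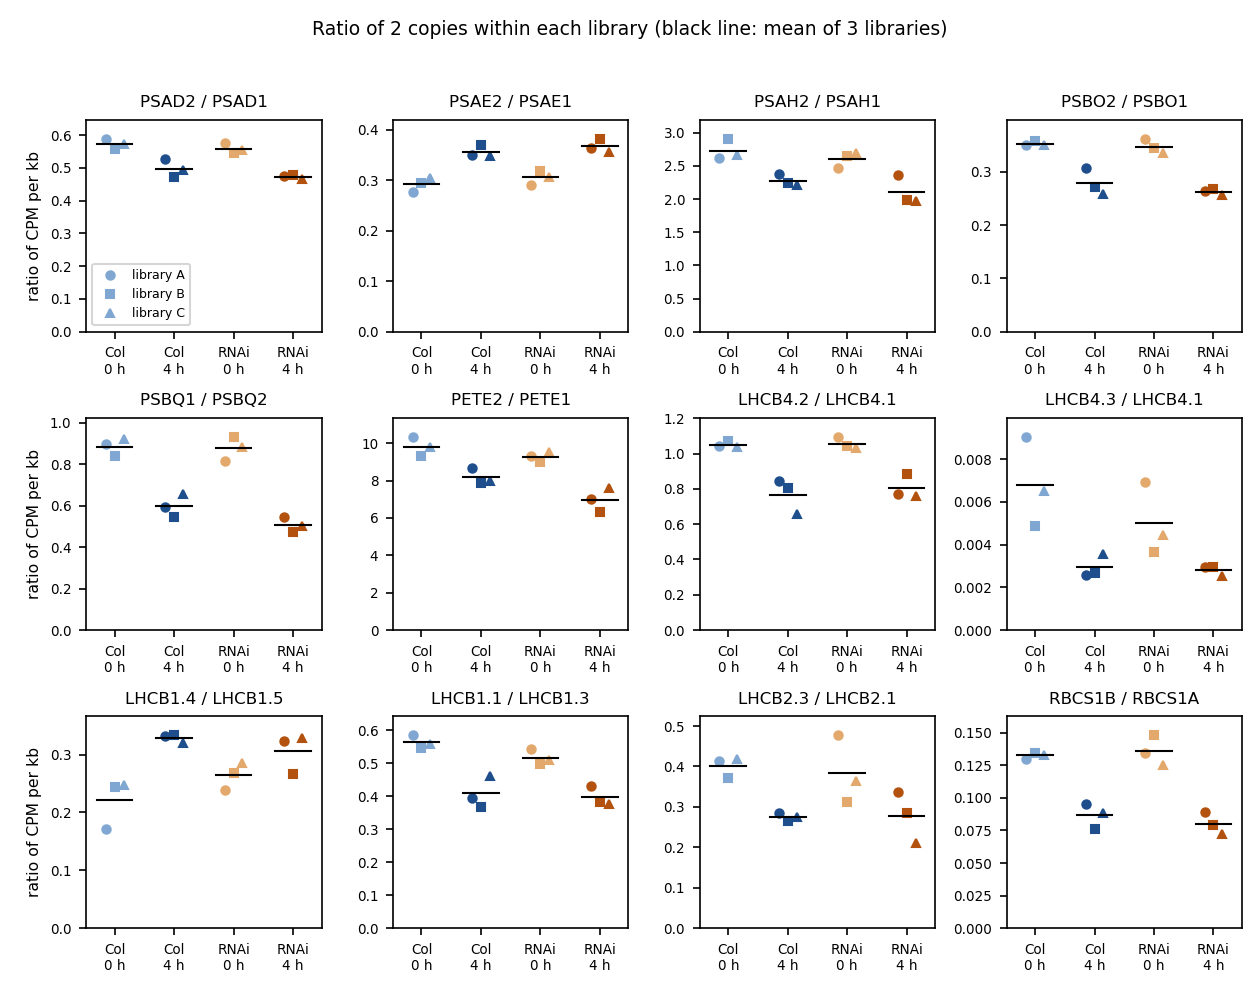
Ratio of CPM per kb of exon between 2 copies within each of the 12 libraries, 1 panel a ratio, with circles, squares and triangles for libraries A, B and C and a black line for the mean of 3 libraries. Ratios after ABA lie apart from those before it in both genotypes in 10 of the 12 panels.

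Whether RNAi-MARS alters these genes was asked at both times. Before ABA none of the 55 genes was called (0.0890% of all features were with edgeR, 0.0801% lower and 0.0089% higher in RNAi-MARS), and none had an unadjusted p under 0.05 with edgeR, DESeq2 or limma-voom. With edgeR 973 of all 22465 features had such a p. The 3 genes with the smallest p were PRK (-0.26 ± 0.14, unadjusted p = 0.0959), PSBS (-0.26 ± 0.17, 0.155) and LHCB4.3 (-0.41 ± 0.29, 0.186), all lower in RNAi-MARS in the mean. PRK stood at 1932, 1777 and 2014 CPM in Col-0 and 1599.5, 1558 and 1625 in RNAi-MARS, and it and GAPA were the only members whose libraries did not overlap between genotypes before ABA, both lower in RNAi-MARS, as were 6.12% of all features, with 5.16% higher. The median difference over the 55 was 0.02, with 32 of 55 above 0. Its sign depended on single Col-0 libraries. Dropping library C from the Col-0 group gave a median of 0.13, with 47 of 55 above 0. Dropping library A instead gave -0.03, with 41 of 55 below 0, and dropping library B gave -0.04, with 38 below 0.

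After ABA again none was called with edgeR, DESeq2 or limma-voom (again 0.0890% of all features with edgeR, 0.0801% lower and 0.0089% higher), while 4, 6 and 4 genes had an unadjusted p under 0.05. With edgeR 1981 of all 22465 features had such a p, so the 4 of 55 were not above the share of all features. The differences were below 0 for 54 of the 55, with a median of -0.17, where all tested features had -0.01 and 11519 of 22465 were below 0. The smallest p-values were those of RCA (-0.57 ± 0.18, unadjusted p = 0.00846), GAPB (-0.49 ± 0.18, 0.0199) and ATPC1 (-0.36 ± 0.14, 0.0246), with adjusted p = 0.477, 0.503 and 0.522. RCA had 6271, 4493 and 4495 CPM in Col-0 and 4017, 2705 and 3573 in RNAi-MARS, and ATPC1 976, 884 and 791 and 733, 552 and 780.5. They were the 2 members whose libraries did not overlap between genotypes after ABA, both lower in RNAi-MARS, as were 5.80% of all features, with 5.96% higher. GAPB had 987, 788 and 984 and 814, 475 and 669.7 CPM, groups that overlapped. Much of this rests on 1 library: with library B of RNAi-MARS after ABA left out the median was -0.02 and 33 of 55 differences were below 0. That library had the highest TMM factor of the 12, and 12.0% of its counts on the 55 genes.

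In that library the median gene lay -0.69 on the log2 scale against the mean of Col-0 before ABA, and in libraries A and C of its group -0.16 and -0.34. Col-0 after ABA had -0.09, -0.24 and -0.32. For the carbon fixation genes alone the medians were -1.08, -1.48 and -1.04 in Col-0 after ABA and -1.19, -2.12 and -1.62 in RNAi-MARS, and for photosystem I 0.09, 0.04 and -0.01 and 0.18, -0.35 and 0.06. So library B was the lowest of its group in every complex, and carbon fixation genes were the lowest complex in each of the 6 libraries after ABA. The 19 root markers summed to 66.0 CPM in library B, beside 33.3 and 66.2 in A and C; their part was not tested.

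The difference between the 2 ABA responses was tested as an interaction. No feature was called in it (0% of 22465), and of the 55 genes none had an unadjusted p under 0.05 with edgeR, DESeq2 or limma-voom. With edgeR 1076 of all 22465 features had such a p. The median interaction was -0.19, with 53 of 55 below 0, meaning a lower value in RNAi-MARS. Of all 22465 features 11650 were below 0, with a median of -0.01. The 55 genes were read from the same libraries, so their signs are not independent. With library B of RNAi-MARS after ABA left out the median of the 55 was -0.04, with 36 of 55 below 0. With library C of Col-0 before ABA left out it was -0.31. The smallest p-values were those of PSBQ1 (-0.40 ± 0.24, unadjusted p = 0.12), ATPD (-0.42 ± 0.26, 0.128) and RCA (-0.39 ± 0.25, 0.151). PSBQ1 had 914, 886 and 1152 CPM before and 848, 739 and 718 after ABA in Col-0, and 1054, 1024 and 979 before and 721, 451 and 640.5 after in RNAi-MARS, with no overlap between the times in either genotype. The counts of genes lower in RNAi-MARS (24) and in Col-0 (14) therefore do not show a difference between the genotypes.

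**Figure D4:**
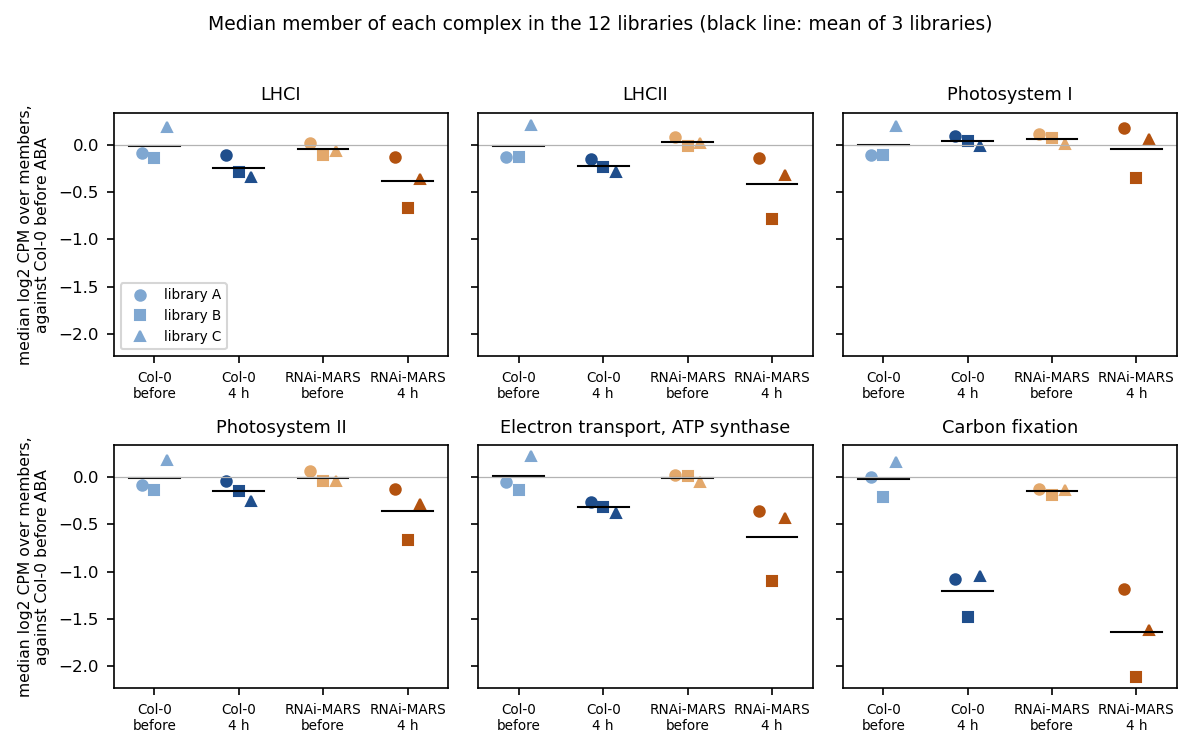
Median over the genes of each complex of log2 CPM, relative to the mean of Col-0 before ABA, in each of the 12 libraries, with circles, squares and triangles for libraries A, B and C and black lines for the mean of 3 libraries. Carbon fixation lies between -1.04 and -2.12 in all 6 libraries after ABA, and library B of RNAi-MARS after ABA (orange square, right) is the lowest of its group in all 6 panels.

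Other nuclear genes of the same pathways were read from lists that hold none of the 55. Like the 55, these lists were chosen with earlier results of these data known. Of 16 other genes of the Calvin-Benson cycle 9 fell in Col-0, 11 fell in RNAi-MARS, and none rose. FBA1 and FBA2, for chloroplast aldolase, went from 2624 ± 289 to 585 ± 117 CPM (SD, n = 3; -2.16 ± 0.20, adjusted p = 1.34e-05) and from 4104 ± 594 to 1399 ± 156 (-1.55 ± 0.17) in Col-0. SBPASE, for sedoheptulose bisphosphatase, went from 1001 ± 102 to 501 ± 57.7 CPM (adjusted p = 0.000815), and in RNAi-MARS the 3 genes fell with log2 differences of -2.29, -1.70 and -1.28. Photorespiration, which recycles the product of Rubisco's reaction with oxygen, had 13 of 15 genes lower in Col-0 and 14 in RNAi-MARS, none higher, and a median of -0.82 and -1.07. CAT2, the main leaf catalase, went from 2454 ± 261 to 701 ± 204 CPM in Col-0 (-1.81 ± 0.20), GLDP2 of glycine decarboxylase was at -1.66 ± 0.18 and the glycolate oxidase gene GOX1 at -1.28 ± 0.17. All 3 also fell in RNAi-MARS (-1.96, -2.04 and -1.28). Of all features 19.3% and 21.0% were called lower.

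Chlorophyll synthesis had 5 genes of 25 higher and 7 lower in Col-0, where 20.7% of all features were called higher and 19.3% lower, and 2 higher and 12 lower in RNAi-MARS, where 21.6% and 21.0% were. The count higher in Col-0 was thus near that share. PORB, a light-dependent protochlorophyllide oxidoreductase, rose from 119.6 ± 46.2 to 840.4 ± 61.7 CPM in Col-0 (2.81 ± 0.26, adjusted p = 1.22e-05) and rose in RNAi-MARS too (2.24 ± 0.25). PORA, its relative of etiolated seedlings, rose in Col-0 from 3.79 ± 2.02 to 17.2 ± 9.11 CPM (2.15 ± 0.65, adjusted p = 0.0233; 0.0715, 0.0588 and 0.0809 without library A or C before or B after ABA) and was at 0.71 ± 0.62 in RNAi-MARS. CHLH, the large subunit of magnesium chelatase, fell in both (-0.94 ± 0.14 and -1.29 ± 0.14). Of 25 other thylakoid genes 12 fell and 4 rose in Col-0, and 15 fell and 5 rose in RNAi-MARS. NDHM of the NDH complex (-1.33 ± 0.23) and the ferredoxin gene FD1 (-1.26 ± 0.20) fell in Col-0, and FNR2, 1 of 2 genes for the leaf ferredoxin-NADP reductase, rose (1.32 ± 0.19), each in the same direction in RNAi-MARS (-1.58, -1.75 and 1.04).

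Factors that insert and assemble thylakoid proteins had 1 of 10 genes lower in Col-0, below the 19.3% of all features called lower, the photosystem I assembly gene Y3IP1 (-0.45 ± 0.15, adjusted p = 0.0361), a call lost without each of the 6 Col-0 libraries (0.0512 to 0.119), and 5 of 10 lower in RNAi-MARS, where 21.0% of all features were. Of 6 light-harvesting-like genes 3 fell in each genotype, with OHP1, a helper of photosystem II assembly, at -0.65 ± 0.15 and -0.72 ± 0.15. LHCB7 fell in Col-0 (-0.71 ± 0.19; 0.0504 without library A before ABA, 0.0520 and 0.0505 without B and C after) and so did LIL3.2 (-0.38 ± 0.13; 0.0545 to 0.140 without each of the 6 Col-0 libraries). Among 10 regulators of chloroplast genes 5 fell and 2 rose in Col-0, the latter near the 20.7% of all features called higher, and 5 fell and 1 rose in RNAi-MARS, where 21.6% were called higher. The 2 that rose in Col-0 were GLK1 (0.60 ± 0.17, adjusted p = 0.0154) and GLK2 (0.48 ± 0.13, adjusted p = 0.0153). In RNAi-MARS GLK1 rose (0.75 ± 0.17, adjusted p = 0.00407) and GLK2 was at 0.28 ± 0.13 (adjusted p = 0.121). GNL, a GATA factor that promotes greening, fell from 20.3 ± 4.33 to 5.79 ± 0.553 CPM in Col-0 (-1.80 ± 0.18, adjusted p = 1.94e-05) and fell in RNAi-MARS too (-1.60 ± 0.18). The sigma factor genes SIG5 and SIG1, for specificity subunits of the plastid RNA polymerase, fell in Col-0 (-0.77 ± 0.21 and -0.76 ± 0.12; for SIG5 0.0535 without library A before and 0.0521 without B after ABA) and in RNAi-MARS (-1.02 ± 0.21 and -0.69 ± 0.12).

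**Figure D5:**
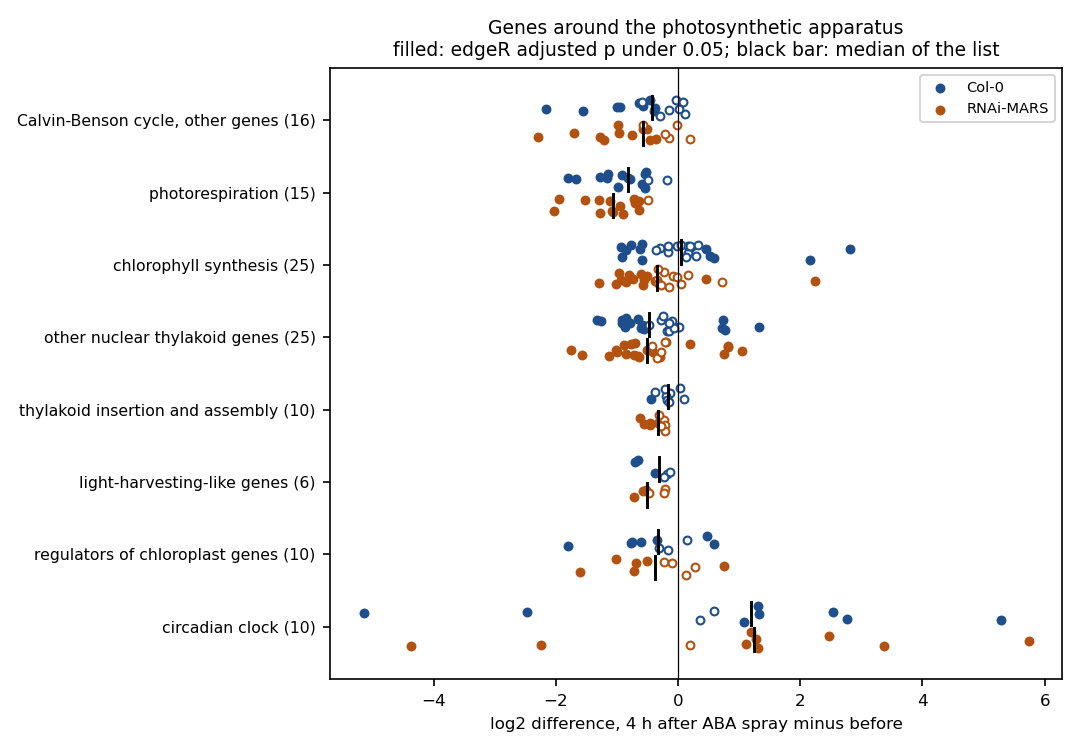
Log2 difference between 4 h after and before the ABA spray for the genes of 8 lists (number of genes in brackets), in Col-0 (blue) and RNAi-MARS (orange), with black bars for the median of a list and filled points past an adjusted p of 0.05. Photorespiration genes lie to the left of 0 in both genotypes (medians -0.82 and -1.07) and clock genes spread from -5.15 to 5.74.

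Clock genes moved strongly between the same libraries. Of 10 clock genes 6 were higher and 2 lower in Col-0 and 7 higher and 2 lower in RNAi-MARS, where of all features 20.7% and 19.3% were called in Col-0 and 21.6% and 21.0% in RNAi-MARS. The morning gene LHY went from 413 ± 34.5 to 11.6 ± 1.75 CPM in Col-0 (-5.15 ± 0.17) and the later PRR5 from 0.694 ± 0.308 to 27.9 ± 5.39 (5.28 ± 0.39), and ELF4, an evening gene, was at 2.76 ± 0.39. RNAi-MARS had -4.37 ± 0.17, 5.74 ± 0.41 and 3.37 ± 0.41 for these 3 genes. The part of the time of day in the changes of the photosynthesis genes was not tested. Of the 19 root markers 1 rose and 2 fell in Col-0 and 1 rose and 1 fell in RNAi-MARS, fewer than the share of all features called (40% and 42.6%), and none of the 19 was at 0 in all libraries. Many were scarce and varied widely between libraries, as EXPA7 with 3.50 ± 1.94 CPM in Col-0 before ABA. The few calls therefore do not show that the root share was unchanged. In Col-0 the iron transporter gene IRT1, which was at 0 in 2 of the 12 libraries, went from 2.28 ± 1.82 to 0.0403 ± 0.036 CPM, WOX5 of the root stem-cell niche rose (2.53 ± 0.55) and SHR fell (-0.36 ± 0.10; 0.0544 and 0.0635 without library A before or after ABA). The endodermis gene CASP1 stood at 12.3 ± 6.67 CPM before and 12.5 ± 3.94 after ABA.

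Of the 55 genes 20 overlap another annotated gene, and the use of strand in counting is not given in the sources used here, so reads could be shared. The neighbour's mean level was at most 7.03% of the member's, for PSAE2, and under 2% for 19 of the 24 overlapping neighbours.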

How the data were processed

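RNA-seq libraries of 12 seedling samples, 3 in each of 4 groups, were analysed. The authors deposited 1 table of estimated counts per library; per the submitters' processing notes reads were trimmed with Trimmomatic 0.36, aligned to TAIR10 with STAR 2.7.2a and counted with featureCounts of Subread 1.6.5. Of the features in a library 5.31 to 7.60% had a count that is not whole, and the strand setting and the handling of reads with several matches are not given in the sources used here. These expected counts were rounded to integers for edgeR 4.0.16 (R 4.3.3): TMM scaling, filterByExpr with a minimum count of 10, 1 coefficient per group over all 12 libraries, robust quasi-likelihood fits and Benjamini-Hochberg adjustment over 22465 features, with calls at an adjusted p under 0.05. The SE is the log2 difference divided by the root of its F. CPM use TMM-scaled library sizes. Totals of 19020202 to 38787804 counts make counting error small for all but the lowest genes.

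DESeq2 1.42.0, limma-voom (limma 3.58.1), other scalings and filters, summed close copies, a replicate block and each library left out were tried. Library letters were not used to pair samples. The members and lists were chosen with earlier results of these data known. Values of every library were given by rule for the member of each complex with the highest mean and those with the largest and smallest ABA difference in Col-0. Also named by rule, in part by means or differences only, were the 3 members with the smallest p in each genotype comparison and the interaction and up to 3 called genes of each list with the largest difference. Values of other members, CASP1, GLK1 and GLK2 were added after their values were seen. Sequences and positions came from RefSeq's release of TAIR10, in which all 55 members and all 136 genes of 9 lists were found by locus identifier.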

Additional observations from a re-analysis of the deposited data

Results flagged for a closer look

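Genes of the plastid genome, which lie outside the nuclear genes compared above and are poorly captured from polyadenylated RNA, took 0.104% of the counts in library C of RNAi-MARS before ABA and at most 0.0256% in each of the other 11 libraries. It was taken up because this share was above that of each other library. The 55 nuclear genes of that library were not apart from its group, with a median of -0.01 on the log2 scale against the mean of Col-0 before ABA, beside 0.07 and -0.01 in libraries A and B.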

How the results depend on the processing

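Of the 15 genes called in Col-0, 10 kept their call under all 22 alternatives, and 16 of the 24 called in RNAi-MARS did. With 1 library left out Col-0 had 10 to 18 genes lower and 0 to 3 higher, and RNAi-MARS 18 to 32 lower and 0 to 2 higher. The count higher in Col-0, 1, was 3 without TMM factors, 3 with DESeq2, 2 with limma-voom, 2 with the compared groups alone and 0 with close copies summed. Leaving out library C of Col-0 before ABA and library B of RNAi-MARS after ABA together, an alternative chosen after seeing the data, gave 5 higher in Col-0 and 3 in RNAi-MARS. No genotype difference or interaction of a member was called under any alternative run. Without TMM factors the median of all features moved by 0.10 in RNAi-MARS and the share of calls that were higher from 50.7 to 61.5%. A replicate block gave 17 lower and 1 higher in Col-0 and 26 lower in RNAi-MARS. The correlation of deviations in 18 same-letter pairs was -0.30 to 0.40 (median 0.042, 8 above 0.1), and 7 of 12 libraries correlated best with their own letter. These values do not settle whether the letters pair the samples.

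Changes of sign were seen for values near 0, none of them called. In Col-0 PSAK was 0.0043 with RLE size factors, 0.0495 without TMM factors, 0.0078 without a filter, 0.0043 with DESeq2, 0.0131 with limma-voom, 0.0097 with the compared groups alone and 0.0069 with the replicate block. Without TMM factors PSAD1 was 0.0012 in Col-0, and in RNAi-MARS PSAD1 was 0.0126, PSAE1 0.0198 and PSBR 0.0083. With both libraries left out, Col-0 had 0.0646 for LHCA5, 0.0138 for LHCB4.1, 0.0340 for PSAD1, 0.0598 for PSAH1, 0.1336 for PSAK, 0.0276 for PSBO1, 0.0152 for ATPC1 and 0.0236 for summed LHCB2, and RNAi-MARS had 0.0621 for LHCB1.3, 0.0537 for PSAD1, 0.0787 for PSAE1, 0.0480 for PSBR and 0.0399 for summed LHCB1. The genotype difference was then 0.0957 for summed LHCB1 after ABA and 0.0577 for summed RBCS before it. The cause was not tested.

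With 1 library left out, the summed families ranged from -0.0279 to 0.2102 for LHCB1 in Col-0 and from -0.2186 to 0.0631 in RNAi-MARS, from -0.1814 to 0.0274 for LHCB2 in Col-0, from -0.1638 to 0.1119 for LHCB1 between genotypes after ABA and from -0.1603 to 0.0583 for RBCS before it. In Col-0 the ranges were -0.1140 to 0.0651 for LHCA5, -0.0477 to 0.1636 for LHCB2.1, -0.1712 to 0.0143 for LHCB4.1, -0.0923 to 0.0345 for PSAD1, -0.1386 to 0.0603 for PSAH1, -0.0724 to 0.1341 for PSAK, -0.1525 to 0.0281 for PSBO1, -0.0643 to 0.1098 for PSBR and -0.1231 to 0.0186 for ATPC1. In RNAi-MARS they were -0.2482 to 0.0859 for LHCB1.3, -0.1983 to 0.0771 for PSAD1, -0.1725 to 0.1018 for PSAE1, -0.0989 to 0.1956 for PSAF, -0.0672 to 0.1790 for PSBQ2 and -0.1843 to 0.0710 for PSBR.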
